A study of Mus musculus with 12 samples.

Results

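RNA of the polyribosomes of striatal synaptosomes was compared with RNA of the whole synaptosome preparation, called input here, in wild-type mice. The mice were male C57BL/6J animals at postnatal day 70 without the Shank3 transgene (TG) carried by the other animals of the series. Of the 12 libraries, 6 entered the comparison, 3 from wild-type input and 3 from wild-type polysome, and libraries with the same number were joined as pairs 1, 2 and 3. Genes with a normalized count of at least 10 in at least 3 of these 6 libraries were compared, which were 16333 of the 21492 genes in the table. The labels give neither the method by which synaptosomes and polyribosomes were isolated nor whether each library stands for its own animal or for pooled animals, so the p-values below describe the scatter among these libraries, part of which may be technical.

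Synaptosomes form when neurons are sheared during homogenization: terminals and the spines attached to them pinch off and reseal, with their mitochondria, vesicles and local RNA enclosed. A messenger RNA in translation carries a string of ribosomes, the polyribosome or polysome, and the number of ribosomes it can hold grows with the length of its reading frame. RNAs with no reading frame, or messengers held in silent granules, are not loaded in this way. Neurons are known to send selected messengers, such as those of Camk2a and Arc, to dendrites and synapses and to keep many of them repressed until the synapse is active.

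The value of a gene is the authors' normalized estimated count, which sets libraries on a common scale. A difference between polysome and input is therefore relative to other genes and does not give the share of a messenger on ribosomes. Differences are given as log2 of polysome over input, after 1 was added to each value, with the standard error of the paired fit, and "rose" or "fell" is written only of genes with an adjusted p under 0.05 (limma, Benjamini-Hochberg over the 16333 genes). Normalized counts summed to 95.5 to 112.6 M in the input and to 64.0 to 74.3 M in the polysome libraries. The best-fitting spacing of low values was about 1.28 to 1.82 in input and 0.634 to 0.786 in polysome. Taken as the worth of 1 read, it puts the depth near 62.0 to 85.3 M reads in input and 89.2 to 101 M in polysome. The spacing was weak (mean cosine 0.278 to 0.514, with 1 for a perfect fit), so these depths are rough estimates. By them, weakly expressed genes were read less precisely in input. Ribosomal RNA of the mitochondrion held 39.07% to 46.24% of the input signal and 25.18% to 34.03% of the polysome signal, while nuclear protein-coding genes held 41.7% to 50.54% and 60.32% to 70.58%. In neither case did the groups overlap.

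Of the 16333 genes, 4976 differed between polysome and input (30.5%). In polysome 2267 were higher (13.9%) and 2709 lower (16.6%), and the median log2 difference over all genes was 0.02. The differences were mostly modest: 419 of the higher and 679 of the lower genes changed at least 2-fold, and 66 and 74 at least 4-fold. The polysome and input values did not overlap for 1847 of the higher and 2297 of the lower genes, against 6050 genes (37%) without overlap in the whole table, 2946 upward (18%) and 3104 downward (19%). Among the called genes, 2251 and 2701 went the same way in all 3 pairs. Without the pairing, 742 were higher and 1252 lower, all of them among the 4976, and without pair 2 the paired fit called 1301 and 2001.

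Sequences of 3 short transcripts that lay far apart in the comparison are shown first. Bc1 is a short cytoplasmic RNA of neuronal dendrites with no reading frame that is known to repress initiation of translation. It is printed whole from the GRCm38 genome (chr7:144914470-144914637, plus strand, 168 bases), with its internal run of 23 adenines, at positions 77 to 99 from its 5′ end, in capitals. Atp5e encodes the epsilon subunit of ATP synthase and has a reading frame of only 159 bases; the frame is printed with its start and stop codons in capitals (gene at chr2:174461072-174464105, minus strand). mt-Atp8 encodes another subunit of the same enzyme on mitochondrial DNA (chrM:7766-7969, plus strand, 204 bases), with its start and stop codons in capitals.
Bc1: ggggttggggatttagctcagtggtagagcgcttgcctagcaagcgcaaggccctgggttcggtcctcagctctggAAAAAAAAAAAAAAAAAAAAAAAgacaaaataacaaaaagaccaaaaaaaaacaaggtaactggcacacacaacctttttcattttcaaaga
Atp5e: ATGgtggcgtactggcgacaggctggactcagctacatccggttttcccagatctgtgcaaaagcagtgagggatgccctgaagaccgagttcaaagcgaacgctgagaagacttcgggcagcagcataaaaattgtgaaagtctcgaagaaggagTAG
mt-Atp8: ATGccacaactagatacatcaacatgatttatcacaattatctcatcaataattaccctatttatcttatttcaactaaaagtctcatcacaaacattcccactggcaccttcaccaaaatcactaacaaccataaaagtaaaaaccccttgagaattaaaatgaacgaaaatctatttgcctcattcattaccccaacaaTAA

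Bc1 had normalized counts of 26815, 81621 and 55391 in input and of 1051, 1488 and 727 in polysome in pairs 1, 2 and 3, and fell by 5.57 ± 0.24 on the log2 scale (adjusted p = 4.63e-07). Atp5e had 1502, 1049 and 578 in input and 3533, 4051 and 3233 in polysome, and rose by 1.89 ± 0.21 (adjusted p = 0.000322). mt-Atp8 had 18556, 20627 and 11518 in input and 1929, 1825 and 1211 in polysome, and fell by 3.34 ± 0.14 on the log2 scale (adjusted p = 4.63e-07). Every polysome library of Bc1 and mt-Atp8 lay below every input library, and every one of Atp5e above. Reads of sequence that genes have in common can be assigned to either gene, so a single value is uncertain to that extent. Of the 31-base sequences of Bc1, 40.58% also occur in other genes, and of genes named below the share was 43.55% in Hspa8, 40.22% in Atp5g2, 36.94% in Rpl10, 34.66% in Pkm, 31.01% in Rpsa, 27.57% in Rps27, 27.2% in Gapdh and 25.86% in Ybx1. Larger shares are given beside the gene.

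**Figure D1:**
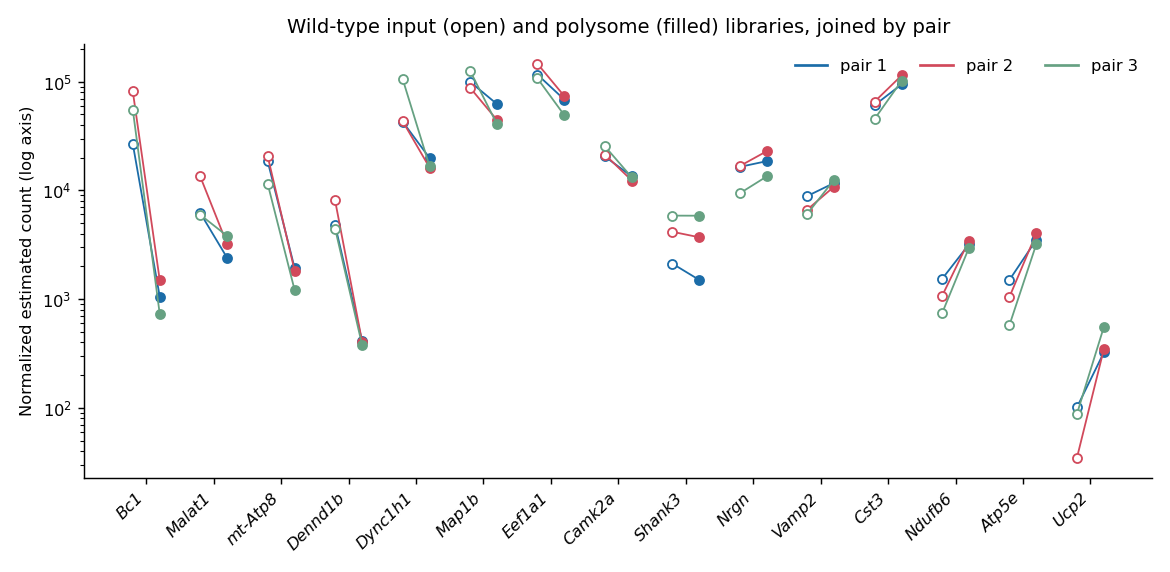
Normalized estimated counts (log axis) of 15 genes in the 3 input (open) and 3 polysome (filled) libraries of wild type, joined by pair. Bc1, mt-Atp8 and Dennd1b drop in every pair, Shank3 and Nrgn keep overlapping groups, and Ndufb6, Atp5e and Ucp2 climb in every pair.

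RNAs without a reading frame were read by class. Of 36 structural small RNAs tested across the annotation, 17 fell (47.2%) and 3 rose (8.33%), with a median of -0.79, and 23 of the 36 share over 50% of their sequence. Of the 10 tested members of a list of named ones (11 of 19 in the table), 6 fell and 2 rose, with a median of -1.86. Rpph1, the RNA of ribonuclease P, stood at -4.63 ± 0.24, Rn7sk, the 7SK RNA that restrains transcription elongation, at -4.46 ± 0.17, and both share over 70% of their 31-base sequences with other genes, which makes their single values uncertain. The 2 risers were Scarna6 (1.54 ± 0.51) and an entry of Rmrp, the RNA of the mitochondrial RNA processing ribonuclease (1.79 ± 0.31), whose other entry fell (-1.72 ± 0.16); other genes hold 96.02% of the sequence of the first entry and 100% of that of the second. Of the 10 tested members of this list, 6 share more than 50% of their sequence. Without such genes the median of the list was 0.30, so its sign depends on them. The few members left include Bc1, which had the largest fall of the list, so this median describes them poorly.

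Of 18 tested nuclear long noncoding RNAs, 7 fell and 0 rose (median -0.48). With the trend on exonic length removed, 6 fell and 2 rose, and the median turned to 0.11. Malat1, an abundant RNA of nuclear speckles, had normalized counts of 6211, 13424 and 5963 in input and 2389, 3198 and 3809 in polysome and fell by 1.36 ± 0.22 on the log2 scale (adjusted p = 0.00222). The 2 groups did not overlap. Where in the cell the Malat1 RNA of these preparations came from was not tested. Rmst, a neuronal long noncoding RNA, had 729, 615 and 549 in input and 109, 64.3 and 79.2 in polysome (-2.92 ± 0.19), and Mirg and Rian, which lie with Meg3 in an imprinted cluster, fell too (-2.27 ± 0.35 and -1.29 ± 0.16). Meg3 itself did not pass (-0.31 ± 0.20, adjusted p = 0.275): its libraries read 342, 579.6 and 408 in input and 257, 339 and 487 in polysome and overlapped. Neat1, the core RNA of paraspeckles, stood at -0.08 ± 0.29 and did not pass. Over all 1175 long noncoding RNAs tested, 50 were higher (4.26%) and 82 lower (6.98%), both below the shares of all genes, with a median of 0.12. Expression level was not matched in these shares. Coding genes in the lowest quintile of level were also called less often, with 7.03% higher and 5.63% lower.

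Host RNAs of small nucleolar RNAs are spliced to release the RNAs in their introns. The exons of noncoding hosts are known to be read by ribosomes and degraded. Of 15 hosts tested, 6 were lower and 0 higher (median -0.50). These hosts include Cct6a and Eif4a2, which encode proteins and are also counted among the chaperones and initiation factors below. Gas5, a noncoding host, had 1598, 1757 and 1471 in input and 419, 319.6 and 520.1 in polysome and fell by 1.96 ± 0.19 on the log2 scale. Snhg8 (-1.38 ± 0.22), Epb41l4aos (-1.27 ± 0.29), Zfas1 (-1.21 ± 0.26) and Snhg6 (-1.17 ± 0.30) fell as well. Mir22hg (0.87 ± 0.18), the host of miR-22, and Dlx6os1 (0.67 ± 0.15), which is transcribed against Dlx6 in interneurons, were among the 5 largest rises of noncoding genes that averaged 6 or more on the log2 scale and shared at most 50% of their sequence.

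Of the 15 genes of the mitochondrial genome tested, 11 fell and 0 rose (median -1.59). 10 of its 13 messengers fell, with a median of -1.63 and pair medians of -1.57, -2.12 and -1.74. mt-Nd1, a core subunit of complex I, fell by 2.70 ± 0.20 on the log2 scale, and mt-Co1, the catalytic subunit of cytochrome oxidase, by 1.26 ± 0.30. mt-Co1 shares 63.89% of its sequence with other genes, which include nuclear copies. The large mitochondrial ribosomal RNA, mt-Rnr2, stood at -1.10 ± 0.49 and did not pass (adjusted p = 0.109), although its groups did not overlap. mt-Atp8 fell further than the other 12 messengers, in a range over all 13 of -3.34 to -0.70. These messengers are read by ribosomes inside the mitochondrion, and how much mitochondrial material the polysome preparation held cannot be told apart from their loading.

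Among nuclear protein-coding genes the difference followed the length of the reading frame. The 2162 coding genes that were higher had a median coding length of 783 bases, and the 2548 that were lower one of 2628 bases. Over the 14660 coding genes tested, Spearman's correlation of the log2 difference with coding length was -0.565, and it was -0.496, -0.432 and -0.574 in pairs 1, 2 and 3. It is a description across genes that share the same 6 libraries. When the genes were split into quintiles of 2932 by coding length, 1043 rose (35.6%) and 70 fell (2.39%) among frames of 102 to 765 bases, with a median of 0.40. In the middle quintile, 1191 to 1674 bases, 326 rose and 361 fell (median 0.01), and in the longest, above 2577 bases, 59 rose (2.01%) and 1304 fell (44.5%), with a median of -0.46. Of the 409 genes with frames over 6000 bases, 4 rose and 288 fell (70.4%), with a median of -0.77. Without the pairing, the shortest quintile had 418 higher and 37 lower and the longest 7 and 708.

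**Figure D2:**
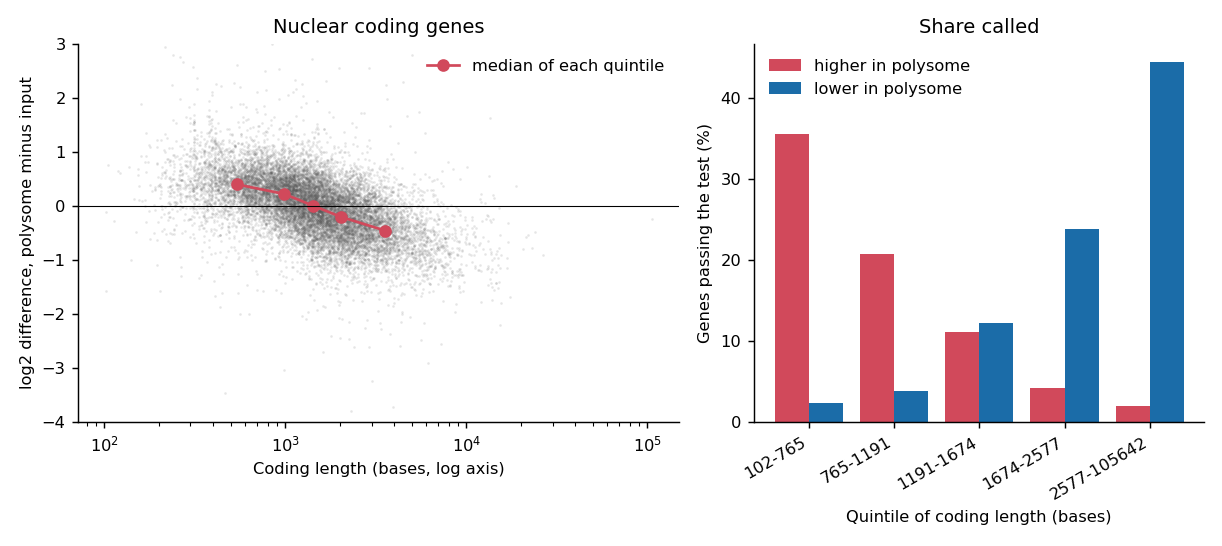
Left, log2 difference of polysome minus input for each nuclear coding gene against coding length (log axis), with the median of each quintile in red; 18 genes lie outside the plotted range. Right, the share of each quintile that was higher (red) or lower (blue); the share higher goes from 35.6% to 2.01% and the share lower from 2.39% to 44.5%.

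Other features of the transcripts went with the difference less closely. Spearman's correlation was -0.428 with the number of exons, -0.416 with exonic length, -0.109 with the length of the 3′ untranslated region, -0.0602 with that of the 5′ untranslated region, 0.15 with GC content and -0.122 with expression level. Within quintiles of 3′ untranslated length the correlation with coding length stayed between -0.576 and -0.545, whereas within quintiles of coding length that with 3′ untranslated length lay between -0.126 and 0.0185. Within quintiles of expression level, coding length gave -0.641 to -0.406, within quintiles of GC content -0.609 to -0.515, and within quintiles of exon number -0.463 to -0.286. The correlation with GC content was not stable over the pairs (-0.00642, 0.282 and 0.108).

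Some genes went against the length relation. Of the 70 short genes that fell, 18 were cytosolic ribosomal proteins. Others were Gng13, a G protein gamma subunit (-1.58 ± 0.20), Bola3, an assembly factor of mitochondrial iron-sulfur clusters (-1.67 ± 0.19), Selenow, a small selenoprotein (-1.29 ± 0.15), and Fth1, the ferritin heavy chain (-1.25 ± 0.16). Selenow had 11164, 11568 and 8781 in input and 4685, 3975 and 4161 in polysome, and the groups were far apart. Rps27 had the lowest value of any coding gene (-6.27 ± 0.37), with mean normalized counts of 5184 in input and 97.9 in polysome. Its polysome libraries scattered widely (standard deviation 114) and 27.57% of its sequence is shared, so the size of this fall is uncertain. In the longest quintile 59 genes rose. Among them were the receptor genes Notch4 (1.34 ± 0.39) and Ltk (0.98 ± 0.18), the cation channel gene Trpm4 (0.88 ± 0.21), Extl3, a heparan sulfate synthesis enzyme (0.87 ± 0.16), Arhgap33, a GTPase-activating protein (0.87 ± 0.17), and the semaphorin Sema4d (0.74 ± 0.16). These genes were picked for lying against the relation after their values were seen.

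The 12 largest rises of coding genes with at least moderate expression and little shared sequence had frames of 159 to 930 bases. Ucp2, an uncoupling protein of the inner mitochondrial membrane (chr7:100493337-100502020), had 101, 34.6 and 87.8 in input and 324, 348 and 556 in polysome and rose by 2.54 ± 0.28. Pycard, the adaptor of the inflammasome (1.90 ± 0.29), Rnaseh2c, a subunit of ribonuclease H2 (1.83 ± 0.26), Malsu1, which joins the large mitochondrial ribosomal subunit (1.79 ± 0.16), Tyw3, a tRNA-modifying enzyme (1.70 ± 0.18), Pam16, part of the mitochondrial import motor (1.67 ± 0.20), and Cln8, a membrane protein of the endoplasmic reticulum (1.66 ± 0.14), also rose. Cln8 had 1549, 1609 and 1418 in input and 4358, 5123 and 4958 in polysome, a narrow spread in both groups. Atp5g2, a subunit of the ATP synthase ring, had a large but scattered rise (2.22 ± 0.58), and its groups overlapped.

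The 12 largest falls were of another kind. Dennd1b, an exchange factor for the vesicle GTPase Rab35 (chr1:138963435-139178960), had 4789, 8072 and 4447 in input and 413, 407 and 379.6 in polysome and fell by 3.80 ± 0.18 on the log2 scale. Ankrd12, an ankyrin repeat protein, had 15524, 21284 and 17941 in input and 3219, 2196 and 1968 in polysome (-2.91 ± 0.20). Cep112, a centrosomal protein (-3.25 ± 0.22), Rprd1b, which binds the tail of RNA polymerase II (-3.04 ± 0.16), Lrch3 (-2.60 ± 0.21), the acetyltransferase Kat6b (-2.49 ± 0.15), the Polycomb methyltransferase Ezh2 (-2.46 ± 0.20), Cdyl, a chromodomain corepressor (-2.41 ± 0.19), and the cohesin subunit Stag1 (-2.38 ± 0.16) fell too, each without overlap of the groups. Their frames ran from 981 bases in Rprd1b to 6126 in Ankrd12, so several were not long.

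Kat6b and Cdyl are also among the genes known to give abundant circular RNAs in brain, closed loops of exons without a free end. Of 24 such host genes, 18 fell and 1 rose, Rtn4 (0.56 ± 0.17), with a median of -0.81 and pair medians of -0.75, -0.88 and -1.07. The 22 coding members with a computed frame had a median difference of -0.75. Their median coding length, 2524.5 bases, lies in a quintile whose median difference was -0.20. With the trend on coding length removed, 10 of these 22 fell and 1 rose, and their median was -0.40. Circular and linear RNA of a gene were not separated in the table, and the part of circular forms in these values was not tested.

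Histone messengers rose as a group more widely than any other list examined here, although most are near-identical copies. Of 62 tested genes of the replication-dependent clusters, 52 rose and 0 fell, with a median of 1.19, and the medians of the 3 pairs were 1.02, 1.04 and 1.41. Values of single genes are uncertain for the 37 members that share over 50% of their sequence, but of the 24 coding members that share less, 23 rose (median 1.15). Members of every histone class rose: 5 of 5 H1, 10 of 16 H2A, 15 of 16 H2B, 9 of 11 H3 and 12 of 13 H4 genes. Without the pairing 43 rose and 0 fell.

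Replication-dependent histone messengers end in a conserved stem-loop in place of a poly(A) tail. A strict form of it, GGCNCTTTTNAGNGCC, was searched on the transcript strand in the sequence after the reading frame. It was found in 38 of 61 histone genes (62.3%) and in 1 of 14599 other coding genes (0.00685%). The histone genes with a match had a median of 1.23, with 35 of 38 higher, and those without had 1.08, with 16 of 23 higher. The match of 1 gene of each class is shown from GRCm38, with the loop in capitals. They lie at chr13:23739512-23739527 (plus strand), chr11:58955172-58955187 (plus strand), chr13:23571843-23571858 (plus strand), chr13:23561903-23561918 (minus strand) and chr13:23531458-23531473 (plus strand).
Hist1h1c: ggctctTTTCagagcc
Hist3h2a: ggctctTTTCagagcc
Hist1h2bg: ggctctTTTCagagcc
Hist1h3e: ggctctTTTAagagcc
Hist1h4h: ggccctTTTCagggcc
The H1, H2A and H2B matches are identical. Hist1h1c, a linker histone that shares 11.44% of its sequence, had 1719.5, 2519 and 1206 in input and 3705, 6365 and 3166 in polysome and rose by 1.28 ± 0.14 (adjusted p = 0.000365). Hist3h2a had 2526, 3204 and 2626 in input and 3956, 4425 and 5122 in polysome and rose by 0.69 ± 0.15. Neither gene's groups overlapped. The kit prepares total RNA, so messengers without a poly(A) tail could enter both kinds of library.

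Messengers of ribosomal proteins are short, yet more of them fell than rose. Of 48 tested proteins of the large subunit, 12 fell and 1 rose (median -0.20), and of 33 of the small subunit, 10 fell and 1 rose (median -0.25), whereas the median of the coding-length quintile to which both belong was 0.40. Within these lists coding length and the difference were nearly unrelated (Spearman's 0.0555 over 48 and -0.0634 over 33). Rpsa, a small-subunit protein also known as a laminin receptor, had 17563, 22699 and 21747 in input and 7265, 8055 and 5784 in polysome and fell by 1.56 ± 0.16 on the log2 scale. Rps24 fell by 1.40 ± 0.17 and shares only 7.86% of its sequence. The exceptions were Rpl10 (0.72 ± 0.20) and Rps27l, a p53-inducible variant (0.78 ± 0.20).

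The size of this fall depended on pair 3. The large-subunit medians were -0.43, -0.35 and 0.05 in pairs 1, 2 and 3, the small-subunit medians -0.63, -0.31 and 0.19, and without pair 3, 25 of 48 and 22 of 33 fell. After the trend on coding length was removed from the fit, 30 of 48 (median -0.60) and 22 of 33 (median -0.66) fell and 0 rose, an alternative chosen after the data were seen. Messengers of ribosomal proteins and elongation factors are known as a class that begins with a pyrimidine tract and is switched by mTORC1. Eef1a1, the elongation factor that carries tRNA, had 116283, 146373 and 107399 in input and 68356, 73549 and 49034 in polysome (-0.96 ± 0.18), and Eef2, the translocation factor, had 43784, 39219.9 and 38673 and 22640.3, 24691 and 18201 (-0.90 ± 0.16). Both fell without overlap, while Tpt1, of the same class, did not pass (-0.25 ± 0.17, adjusted p = 0.303). Eef1a1 shares 49.77% of its sequence with other genes.

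Of 17 elongation and termination factors tested, 6 fell and 1 rose, Btf3 (0.64 ± 0.15). The 43 initiation factors divided evenly, with 10 higher and 10 lower (median 0.11). The cap-binding protein Eif4e had 3923, 3502 and 2600.1 in input and 6288, 6152 and 7175 in polysome and rose by 0.99 ± 0.17, and Eif1, which checks the start codon, rose by 0.93 ± 0.16. Eif4g3, a scaffold of the cap complex, fell by 1.28 ± 0.16 on the log2 scale, and the poly(A)-binding protein Pabpc1 by 1.04 ± 0.16. These factors followed length too (Spearman's -0.61 over 43 genes). In the mTORC1 pathway 5 of 34 rose (14.7%) and 6 fell (17.6%), shares near the 13.9% and 16.6% of all genes tested. Its members ran from -1.74 to 1.04, with the lysosomal anchor Lamtor4 (1.02 ± 0.18) and the arginine sensor Castor1 (1.04 ± 0.27) among the higher ones. Of 15 messengers known for upstream reading frames, 2 rose, Bace1 (0.43 ± 0.14) and Cebpa (0.83 ± 0.18), and 0 fell. The share of rises, 13.3%, was near that of all genes. Atf4, a stress-response factor, stood at 0.07 ± 0.14 (adjusted p = 0.742).

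Iron storage messengers fell. Fth1 had 21548, 22736 and 13380.2 in input and 7983, 8874 and 6875 in polysome, and Ftl1, the ferritin light chain, stood at -0.97 ± 0.15, with 57.74% of its sequence shared. Both carry the iron-responsive element by which iron regulatory proteins block translation. Of 7 messengers of iron metabolism 4 fell, among them these and Alas1, the first enzyme of heme synthesis (-1.08 ± 0.22), and 0 rose.

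Many messengers of nuclear genes for mitochondrial proteins rose, and many did not pass. Of 38 subunits of complex I, 23 rose and 1 fell (median 0.54), of 44 of complexes II to V, 24 rose and 3 fell (median 0.68), and of 77 mitochondrial ribosomal proteins, 37 rose and 1 fell (median 0.49). Ndufb6, an accessory membrane subunit of complex I with a frame of 387 bases, had 1531, 1066 and 739 in input and 3191, 3457 and 2972 in polysome and rose by 1.59 ± 0.18. Ndufs1, the largest subunit of the same complex, with a frame of 2184 bases, had 8244, 12638 and 12255 in input and 6029.5, 5917 and 3362 in polysome and fell by 1.14 ± 0.22 on the log2 scale. Each gene's groups were separate, in opposite directions. Of the 3 that fell in complexes II to V, Atp5a1, the alpha subunit of ATP synthase (-0.78 ± 0.21), and Uqcrc2, a core protein of complex III (-0.71 ± 0.20), have frames of 1662 and 1362 bases against a list median of 397.5, and Cox7a2l, a supercomplex factor (-0.51 ± 0.14), has 405. Mrpl28 had 1207, 1070.0 and 787 in input and 2522, 2784 and 2513 in polysome (1.37 ± 0.16), and Mrps14 rose by 1.44 ± 0.19. Without the pairing, 12, 19 and 19 members of these lists rose. The quintile that holds the median frame of all 3 lists had a median difference of 0.40. With the trend on coding length removed, the 3 lists came closer to the 11.3% higher and 12.1% lower of all coding genes in that fit. Each still had a larger share of rises than all coding genes. Then 15 of 37 complex I subunits rose and 2 fell (median 0.15), and 20 of 44 of complexes II to V rose and 6 fell (median 0.33). Of 77 mitochondrial ribosomal proteins 16 rose and 4 fell (median 0.12).

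In the proteasome, which degrades ubiquitin-tagged proteins, 12 of 37 subunits rose and 1 fell (median 0.30). Psmb4, of the core particle, had 4021, 3625 and 2849 in input and 7347, 8723 and 6551 in polysome and rose by 1.11 ± 0.15. Psmd1, a large scaffold of the regulatory particle, had 6458, 6667 and 6105 and 4956, 4266 and 3162 and fell by 0.66 ± 0.16 on the log2 scale. The immunoproteasome subunit Psmb8 rose by 1.51 ± 0.30. The count of risers hung on the pairs, with 19 without pair 3 and 6 without pair 2. Cytosolic chaperones went the other way, with 13 of 27 lower and 4 higher (median -0.50): Hspa8, the main heat shock cognate, had 174078, 215471 and 265320.0 in input and 130111, 107771 and 58355 in polysome (-1.20 ± 0.29), and the small prefoldin Pfdn4 rose (0.86 ± 0.21). Of 30 chaperones and translocon proteins of the endoplasmic reticulum, 11 rose and 4 fell, from Sec61b, a tiny subunit of the channel (1.17 ± 0.19), to calreticulin, Calr (-1.09 ± 0.23).

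Of 17 tested entries for glycolytic enzymes, among which Aldoa has 2, 7 fell and 1 rose (median -0.44). Pkm, pyruvate kinase, had 64565, 82424 and 86157 in input and 33180.4, 37237 and 18498 in polysome and fell by 1.44 ± 0.23 on the log2 scale, and Hk1, hexokinase, fell by 1.03 ± 0.20. Gapdh read 82737, 77345 and 63786 in input and 66889, 75140.0 and 32881 in polysome, with overlap, and did not pass (-0.43 ± 0.20, adjusted p = 0.126). Of 30 antioxidant enzymes and selenoproteins, 15 rose and 2 fell (median 0.58). Txn1, thioredoxin (1.02 ± 0.18), and Selenom (1.03 ± 0.19) rose, and catalase, Cat (-0.81 ± 0.18), and Selenow fell.

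**Figure D3:**
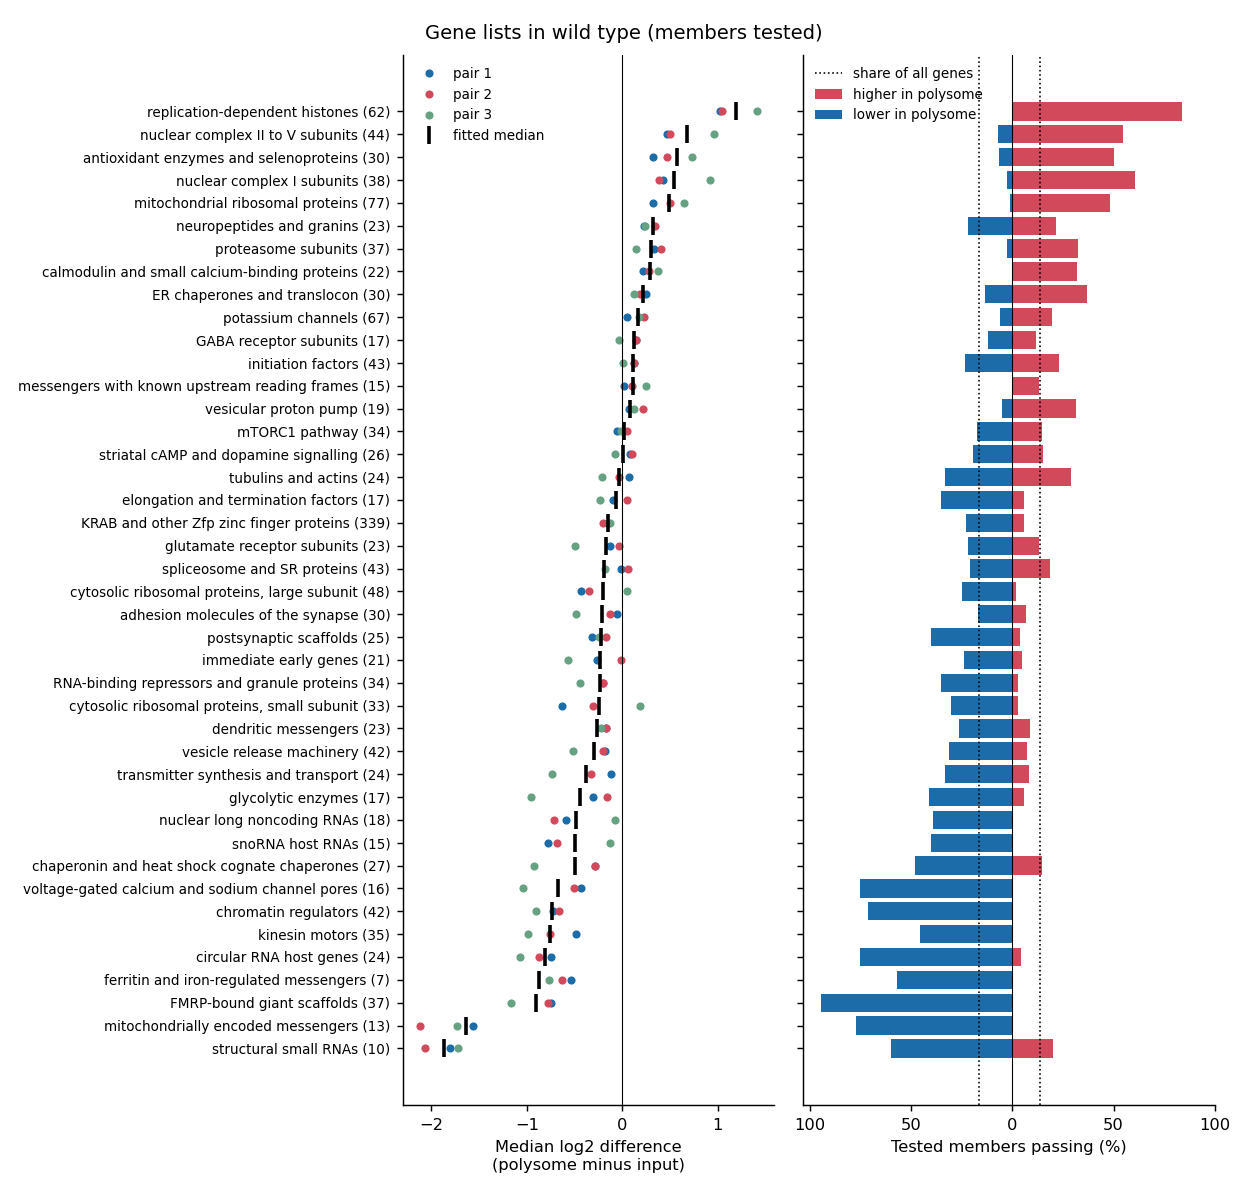
For each gene list (members tested in parentheses), the left panel gives the median log2 difference of polysome minus input in the fit (black bar) and in each pair (dots), and the right panel the percentage of members higher (red) and lower (blue), with dotted lines at the 13.9% and 16.6% of all genes tested. Histones and nuclear respiratory chain subunits lie at the upper end and structural small RNAs and mitochondrially encoded messengers at the lower end.

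Large cytoskeletal and scaffold proteins whose messengers are known targets of FMRP, the fragile X protein that stalls ribosomes, fell almost without exception. Of 37 such genes, chosen for their size, 35 fell and 0 rose, with a median of -0.91 and pair medians of -0.75, -0.78 and -1.17. Dync1h1, the heavy chain of dynein, had 43005, 43475 and 106608 in input and 19876, 16233 and 16706 in polysome (-1.74 ± 0.26), and the high value of input 3 widened its spread. Map1b, a microtubule protein of growing axons, had 99937, 88207 and 126424 in input and 62247, 44464 and 40754 in polysome and fell by 1.10 ± 0.21 on the log2 scale. Mycbp2, a ubiquitin ligase of synapse formation, fell by 1.55 ± 0.16. The median frame of the list is 11781 bases. With the trend on coding length removed, 6 fell, 2 rose and the median was -0.07.

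Chromatin regulators, also long, gave 30 lower and 0 higher of 42 (median -0.73), with the methyltransferase Kmt2b at -1.46 ± 0.17 and Adnp, which shares 81.18% of its sequence, at -2.16 ± 0.16. Kinesin motors gave 16 lower and 0 higher of 35 (median -0.76). Kif5a, a neuronal kinesin that carries dendritic RNA granules, had 80125, 72734 and 105598 in input and 31172, 27616 and 44766 in polysome and fell by 1.33 ± 0.16 on the log2 scale, with no overlap. With the trend on coding length removed, 10 chromatin regulators fell and 3 rose, and 7 kinesins fell and 0 rose. FMRP's own gene, Fmr1, did not pass (0.00 ± 0.14). Of 34 RNA-binding repressors and granule proteins, 12 fell and 1 rose. Stau2, a carrier of dendritic RNA, fell by 1.17 ± 0.15, and Ybx1, which packages silent messengers, by 1.30 ± 0.16.

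In the presynaptic release machinery members moved in both directions. Of 42 members 13 fell and 3 rose (median -0.30), and Spearman's correlation with coding length within the list was -0.813. Vamp2, the vesicle SNARE with a frame of 492 bases, had 8859.6, 6639.7 and 6069 in input and 11704, 10847 and 12537 in polysome and rose by 0.72 ± 0.16 (adjusted p = 0.00903). Unc13a, the priming factor with a frame of 5196 bases, had 15167, 13627 and 16253 in input and 6137, 5195 and 4223 in polysome and fell by 1.55 ± 0.17 on the log2 scale (adjusted p = 0.000289). For both genes the groups were separate. Pclo, the giant active zone scaffold, fell by 1.41 ± 0.15, and Sncb, beta-synuclein, rose by 1.06 ± 0.18. Snap25, the plasma membrane SNARE, read 83306, 79048 and 85362 in input and 88309.6, 70669.7 and 69786 in polysome, overlapped and did not pass (-0.12 ± 0.18, adjusted p = 0.633), and the calcium sensor Syt1 narrowly missed the threshold (-0.56 ± 0.21, adjusted p = 0.0603). The vesicular proton pump had 6 of 19 higher and 1 lower, with its subunits Atp6v0b at 0.98 ± 0.16 and Atp6v1h at -0.65 ± 0.17.

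**Figure D4:**
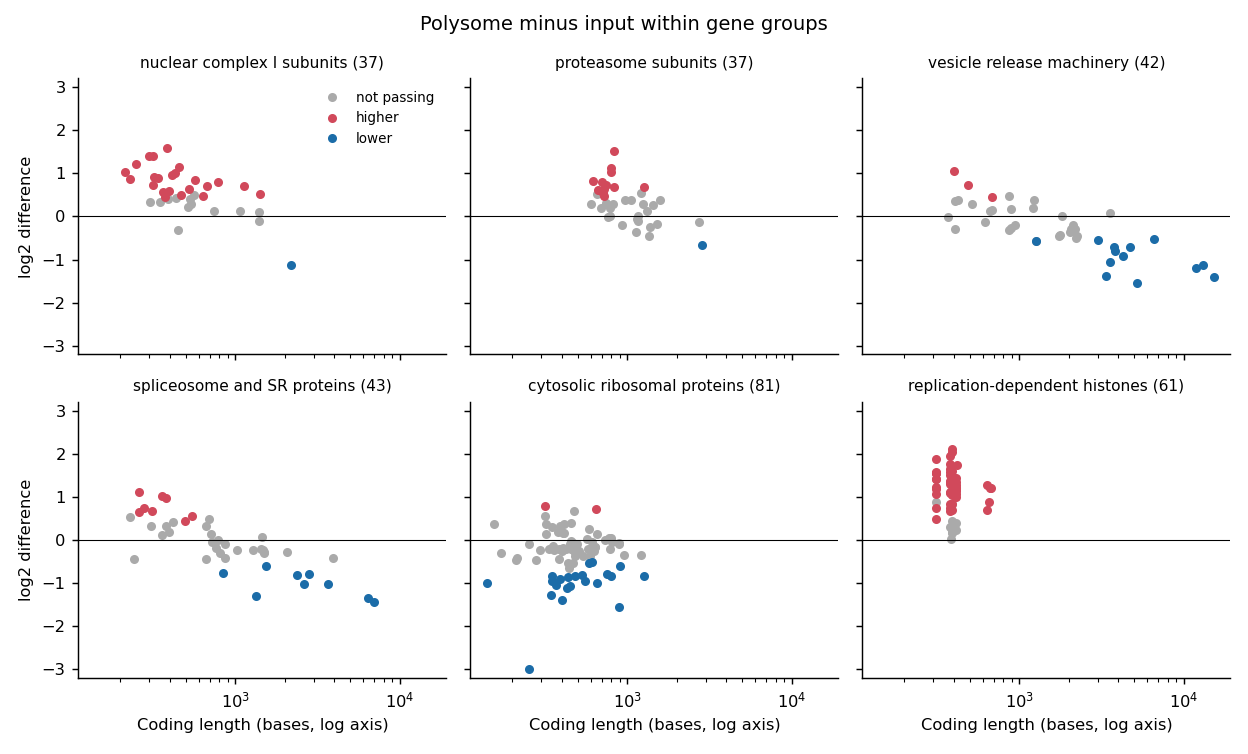
Log2 difference of polysome minus input against coding length (log axis) for the members of 6 groups, red where higher, blue where lower and grey where not passing; values past -3 or 3 are drawn at that limit, which moves Rps27. Complex I, the proteasome, the release machinery and the spliceosome slope downward, while ribosomal proteins stay near or below 0 and histones above 0 at short lengths.

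Of 43 splicing factors, 8 rose (18.6%) and 9 fell (20.9%), shares near those of all genes, and Spearman's correlation with coding length was -0.799. Sf3b5, a small subunit of the U2 particle, had 888, 747 and 556 in input and 1388, 1610.4 and 1675 in polysome and rose by 1.11 ± 0.19, and Prpf8, the largest spliceosomal protein, had 20744, 21456 and 22339.5 and 9665, 8843 and 5860.5 and fell by 1.44 ± 0.18 on the log2 scale. Tubulins, actins and their small partners had 7 higher and 8 lower of 24 (Spearman's -0.834). The actin-binding peptide gene Tmsb4x, with a frame of 153 bases, rose by 0.68 ± 0.20, Tuba1a fell by 1.34 ± 0.26 with 77.04% of its sequence shared, and Actb did not pass (-0.42 ± 0.22, adjusted p = 0.166).

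Ion channels were read by kind. Of 16 voltage-gated calcium and sodium channel subunits, mostly pores, 12 fell and 0 rose (median -0.68), with the presynaptic calcium channel Cacna1b at -1.03 ± 0.15 and its relative Cacna1a at 0.499 times its input level. With the trend on coding length removed none of the 16 passed (limma) and the median was -0.01. Of 67 potassium channels 13 rose and 4 fell (median 0.17), with Kcng2 at 1.28 ± 0.18 and Kcnt2, a sodium-activated channel, at -1.07 ± 0.15. Without the pairing 1 of them rose and 1 fell, and without pair 2, 3 rose and 2 fell.

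Among postsynaptic scaffolds more messengers fell than rose. Of 25 tested, 10 fell (40.0%) and 1 rose (4.0%), against 16.6% and 13.9% of all genes tested. Their median was -0.22, although their median frame of 2979 bases lies in the quintile with a median difference of -0.46. Shank3, the scaffold gene used as the transgene in the other libraries, had 2121, 4162 and 5858 in input and 1501, 3702 and 5848 in polysome in pairs 1, 2 and 3 (chr15:89499623-89560261). Its libraries differed far more between pairs than within them, and the difference did not pass (-0.22 ± 0.15, adjusted p = 0.292). Shank1 had 1301, 986 and 6077 in input and 1522, 1241 and 10984 in polysome and rose within each pair by a fitted 0.47 ± 0.16, close to the threshold (adjusted p = 0.0487), with overlapping groups. Dlg4, which encodes PSD-95, read 15189.9, 18179 and 17409 and 17167, 24138 and 26301 and did not pass (0.39 ± 0.16, adjusted p = 0.0802), while Baiap2, an actin-linked scaffold, fell by 1.14 ± 0.19 on the log2 scale. After the trend on coding length was removed, 6 scaffolds rose and 3 fell and the median turned to 0.15. Without pair 2, 3 fell and 0 rose.

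Of 23 glutamate receptor subunits 5 fell (21.7%) and 3 rose (13.0%), against 16.6% and 13.9% of all genes tested. Their median was -0.17, and Spearman's correlation with coding length was -0.0247. Without the pairing 2 fell and 0 rose. Grin1, the obligatory NMDA receptor subunit, had 41719, 39334 and 40189 in input and 28509.6, 25081 and 12100.2 in polysome and fell by 0.98 ± 0.22 on the log2 scale. Grik5, a kainate receptor subunit with a frame of nearly the same length (2940 against 2880 bases), had 7219.5, 8259.7 and 9056 and 9047, 12546 and 16896 and rose by 0.61 ± 0.16. Grin1 showed no overlap, and Grik5 overlapped but rose in each pair. Grin2b fell (-0.78 ± 0.19) and the presynaptic metabotropic receptor Grm4 rose (0.61 ± 0.15). Of 17 GABA receptor subunits and their anchor, 2 fell, gephyrin, Gphn (-1.37 ± 0.18), and Gabrq, to 0.501 times its input level, and 2 rose, Gabra4 (0.54 ± 0.16) and Gabrb2 (0.57 ± 0.20). Each share, 11.8%, lay below that of all genes. Of 30 adhesion molecules 5 fell (16.7%, near the share of all genes), among them Tenm1 (-1.38 ± 0.19) and Tenm2 (-1.24 ± 0.16). In this list 2 rose (6.67%), Nlgn2, the neuroligin of inhibitory synapses (0.51 ± 0.16), and Lrrtm1 (0.52 ± 0.15). With the length trend removed, the medians of the glutamate receptor and adhesion lists turned to 0.12 and 0.23.

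Of 23 messengers known to lie in dendrites, 6 fell and 2 rose (median -0.27). Camk2a, the kinase subunit of synaptic plasticity, had 20516, 21371 and 25472 in input and 13436, 12314 and 13154 in polysome and fell by 0.79 ± 0.15 on the log2 scale (adjusted p = 0.0046). Arc, the immediate early gene that is translated at active synapses, had 8585, 6578 and 10124 and 5003, 4760.0 and 4289 and fell by 0.83 ± 0.17. The groups of both were separate. Nrgn, neurogranin, with a frame of 237 bases, read 16442, 16729 and 9389 and 18568, 22917 and 13429, overlapped and did not pass (0.38 ± 0.15, adjusted p = 0.0811). Map2 fell (-0.93 ± 0.19), and Ddn did not pass (-0.27 ± 0.15). Of 21 immediate early genes 5 fell, including Fos (-0.89 ± 0.17) and Egr2 (-1.05 ± 0.21), and 1 rose, Jund (0.78 ± 0.16).

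Striatal signalling genes gave 4 higher (15.4%) and 5 lower (19.2%) of 26, shares near those of all genes, and 1 higher and 0 lower without the pairing (limma). Spearman's correlation with coding length was -0.789. The adenosine receptor Adora2a of indirect-pathway neurons had 8395, 15374 and 7566 in input and 12333, 27464 and 14737 in polysome and rose by 0.78 ± 0.15. Both groups were highest in pair 2, so they overlapped even though each pair rose. The phosphodiesterase Pde10a (-0.76 ± 0.17) and the regulator Rgs9 (-0.85 ± 0.19) fell. The dopamine receptors did not pass: Drd1 stood at 0.19 ± 0.15 (adjusted p = 0.367) and Drd2 at 0.03 ± 0.14 (adjusted p = 0.884), and so did Ppp1r1b, which encodes DARPP-32 (0.34 ± 0.15, adjusted p = 0.121). Among 23 neuropeptides and granins, 5 rose and 5 fell. The substance P precursor Tac1 had 11287, 22512 and 9789.7 in input and 18915, 30902 and 20473 in polysome and rose by 0.76 ± 0.17, Cartpt rose by 0.92 ± 0.17, and Penk did not pass (0.43 ± 0.18, adjusted p = 0.0863). The granins Chga and Chgb, which build secretory granules, fell: Chga had 12026, 6572 and 11439 in input and 5019, 3596 and 3066 in polysome (-1.34 ± 0.19) and Chgb stood at -1.24 ± 0.21. Without the pairing, 0 of these peptide genes rose and 3 fell (limma; 5 and 5 with it). Of 22 calmodulins and small calcium-binding proteins 7 rose and 0 fell, with S100a6 at 1.11 ± 0.21, and 1 rose without the pairing.

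Transmitter enzymes and transporters had 8 of 24 lower and 2 higher (median -0.38). Slc1a3, the glutamate transporter of astrocytes, had 51955, 51151 and 55698 in input and 32063, 26082 and 18902 in polysome and fell by 1.08 ± 0.19 on the log2 scale. Slc18a2, the vesicular monoamine carrier of dopaminergic axons, fell by 1.18 ± 0.29, and Slc17a7, the vesicular glutamate carrier of cortical axons, rose by 0.63 ± 0.18. Among 339 Zfp zinc finger genes 78 fell and 19 rose (median -0.15), with Zfp62 at -1.45 ± 0.15 and Zfp532 at -1.41 ± 0.15.

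Markers of the cells that a striatal synaptosome preparation can hold were read in both fractions. Those of medium spiny neurons, the main striatal cell, gave 4 higher (18.2%) and 3 lower (13.6%) of 22 (median 0.02). Over all genes tested the shares were 13.9% and 16.6%. The summed level of the medium spiny markers was 313400 to 637000 in input and 328800 to 692300 in polysome, with pair 2 highest in both. Without the pairing none of the 22 passed (limma). Astrocyte markers gave 2 higher and 4 lower of 15 (450400 to 465900 in input, 283300 to 422500 in polysome), oligodendrocyte markers 4 and 1 of 15 (329200 to 467700, and 321500 to 475300), endothelial and mural markers 2 and 1 of 19, choroid plexus and ependymal markers 2 and 1 of 12, blood genes 1 and 0 of 6, striatal interneuron markers 4 and 2 of 14, cortical excitatory markers 3 and 3 of 15, and midbrain dopaminergic markers 0 and 2 of 6. Of 17 microglial markers 8 rose and 1 fell (median 0.33), and their sum was 120200 to 123800 in input and 164100 to 184000 in polysome, without overlap. Cst3, cystatin C, abundant in microglia and also made by astrocytes, had 60855, 65507 and 45423 in input and 94497, 114027 and 101770.0 in polysome and rose by 0.87 ± 0.18. It held much of that sum: without it the other 16 markers summed to 59320, 58280 and 75100 in input and to 69630, 69990 and 75600 in polysome, which overlapped and were nearly equal in pair 3. Without the pairing 3 microglial markers rose, without pair 2 also 3, and with the trend on coding length removed 2. Fewer cells or fragments of a type and less RNA in each cannot be told apart in such bulk samples, and the part of glial RNA in the other results was not tested. The labelled source was present in the values: per kilobase of exon, mean input levels were 12159 for Snap25, 5749 for Drd1, 5538 for the myelin gene Mbp and 790.2 for the astrocyte gene Gfap.

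The same comparison was available in 3 pairs of Shank3 TG libraries, which share no library with wild type and whose transgene has no promoter named in the labels. Of the 2267 genes that were higher in wild type, 2252 had a mean difference of the same sign in TG and 2122 (93.6%) had it in all 3 TG pairs, with medians of 0.67 in wild type and 0.70 in TG. Of the 2709 lower genes the counts were 2701 and 2596 (95.8%), with medians of -0.77 and -0.76. These shares were not computed over all genes tested, so no background stands beside them. Bc1 averaged -5.82 in TG, Atp5e 1.95, mt-Atp8 -3.69 and Dennd1b -3.65, close to their wild-type values. Ucp2 and Malsu1 rose by 2.54 and 1.79 in wild type and averaged 1.22 and 1.01 in TG. The correlation with coding length was -0.557 in TG. A difference of the polysome-to-input change between the genotypes was tested in all 12 libraries with pairs as blocks: 0 of 16962 genes passed (0%, limma), and 209 had an unadjusted p under 0.05. These 209 are well below the share of 0.05 expected if no gene differed, so this test was prone to miss differences. That a gene did not pass does not show that its change was equal in both genotypes.

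**Figure D5:**
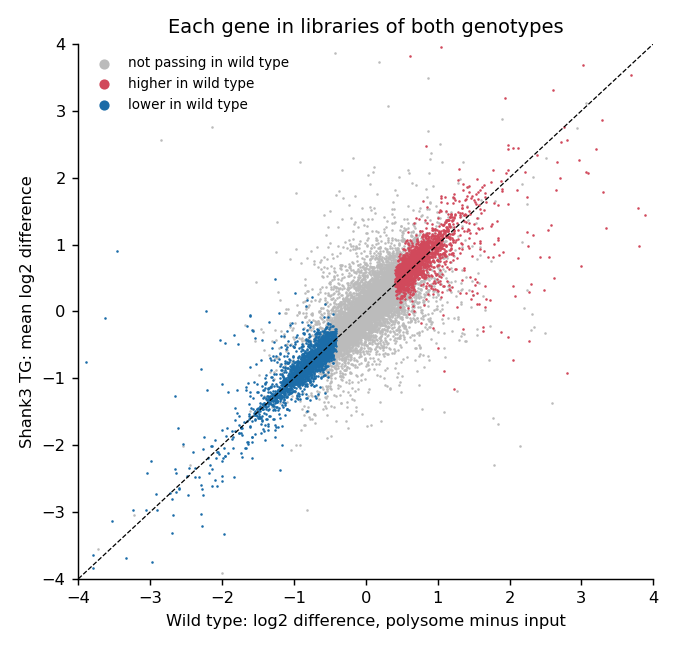
Log2 difference of polysome minus input for each of 16333 genes in wild type (horizontal axis) against its mean in the 3 pairs of Shank3 TG libraries (vertical axis), red where higher and blue where lower in wild type; the dashed line marks equal values and 38 genes lie outside the range. Pearson's correlation across genes was 0.859.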

How the data were processed

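RNA of synaptosomes (input) and of their polyribosomes was sequenced from total RNA libraries in 4 groups of 3, per the labels. The authors deposited 1 table of 21492 genes whose signal is their normalized estimated count, with no whole numbers among the values, so no count test was run. Per the submitters' processing notes, Salmon (1.1.0), DESeq2 (1.26.0) and R (3.6.2) were used by the authors with the build GRCm38. The annotation and the scaling model used are not given in the sources at hand.

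Log2(value + 1) was fitted with limma (3.58.1, under R 4.3.3), a scale that understates changes of low genes, with a variance trend, the library number as a block and Benjamini-Hochberg adjustment at 0.05. Genes reaching 10 in at least 3 of the 6 libraries were tested. The labels share numbers across groups without saying what they mark. Deviations from group means correlated at 0.386, 0.445 and 0.391 in the same-numbered libraries and at -0.299 to -0.122 in others. Deviations from a group's own mean cancel out, so positive values in same-numbered libraries push the others negative. Whether a shared number marks a preparation, a batch or something else was not tested. Symbols, coordinates, coding and exonic lengths and shared 31-base sequence came from GENCODE M21 (GRCm38), which matched 21465 genes and left 27 unmatched. TMM factors, trimmed means of log ratios, were computed directly. No 2 libraries were identical (correlations 0.946 to 0.98).

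Lists are described by counts and medians beside those of all genes tested, with no set test. The members, the 42 gene lists and the 10 marker lists were chosen with earlier results of these data known. Genes named were the 12 largest rises and falls of called coding genes whose log2 level averaged 6 or more, the same direction in all pairs and at most 50% shared sequence, 5 each of noncoding genes, up to 2 rises and 2 falls of each list, and a fixed set of synaptic and reference genes; a few others were named after their values were seen, and a few within the rule are not reported here. The fit was tested on simulated data. Alternatives were no pairing, TMM scaling, other pseudocounts and filters, no variance trend, all 12 libraries, each pair left out, genes with shared sequence left out, and the trend on exonic or coding length removed, the last added after the data were seen.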

Additional observations from a re-analysis of the deposited data

How the results depend on the processing

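Without the replicate block, that is, with the pairing dropped, 742 genes were higher and 1252 lower, against 2267 and 2709 with it, and without a variance trend 535 and 883. Leaving out 1 pair gave 1301 to 2237 higher and 2001 to 2511 lower genes, the fewest without pair 2. With the trend on coding length removed, 1656 were higher and 1773 lower among 14687 coding genes, and 2428 of the calls made with the trend were kept. TMM scaling (2440 and 2656), pseudocounts of 0.5 and 5, no filter (2060 and 2503), a filter of 50, all 12 libraries, the genes with shared sequence left out and the exonic-length trend removed (2117 and 2217) gave counts within 1.5 times those reported. TMM moved the median of all genes from 0.02 to 0.04.

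Of the 201 gene entries reported by the rule, 66 no longer passed without the replicate block, 78 without the variance trend, 29 with the coding-length trend removed, 27 without pair 2 and 18 with the exonic-length trend removed. Only entries that passed at first could be lost, and genes without a reading frame were absent from the coding-length fit. These counts are therefore not shares of the 201. Genes that turned direction had not passed in the first place. With 1 pair left out in turn, these were Atf4 (-0.0175 to 0.118), Drd2 (-0.0045 to 0.0848) and Fmr1 (-0.0178 to 0.0167), each below 0 without pair 3. With the exonic-length trend removed they were Atf4 (-0.11), Drd2 (-0.13), Meg3 (0.21), Shank3 (0.0405) and Snap25 (0.0262), and with the coding-length trend removed Atf4 (-0.0911), Mbp (-0.0164), Nrgn (-0.0928), Ppp1r1b (-0.0347) and Shank3 (0.39). Among lists, dropping the pairing left 5 of 12 falls among calcium and sodium channels, 4 of 10 among scaffolds, 9 of 16 among kinesins, 5 of 13 among cytosolic chaperones, 3 of 7 among glycolytic enzymes, 36 of 78 among Zfp genes and 8 of 13 in the release machinery, and 0 of 7 rises and 3 of 8 falls of tubulins and actins. It left no call among markers of medium spiny neurons (4 rises and 3 falls with the pairing), cortical neurons (3 and 3), interneurons (4 and 2), endothelial and mural cells (2 and 1) and blood (1 and 0). It left 1 rise and 0 falls in striatal signalling (4 and 5), 0 and 2 among glutamate receptors (3 and 5), 0 and 1 among GABA receptors (2 and 2), 0 and 5 among adhesion molecules (2 and 5), 3 and 5 among initiation factors (10 and 10), 1 and 4 in the mTORC1 pathway (5 and 6), 3 and 6 in the spliceosome (8 and 9), 0 and 4 among transmitter genes (2 and 8), 3 and 0 in the proton pump (6 and 1), 6 and 2 among endoplasmic reticulum chaperones (11 and 4) and 9 and 2 among antioxidant enzymes (15 and 2). The cause was not tested beyond the construction of each alternative.

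List medians that turned sign under 1 or more alternatives were small for the most part. With the coding-length trend removed they were those of endoplasmic reticulum chaperones (-0.02), initiation factors (-0.06), neuropeptides (-0.04), calcium-binding proteins (-0.07), the proton pump (-0.10), the mTORC1 pathway (-0.03), blood (-0.08), astrocytes (-0.10) and interneurons (-0.09), besides those given with the results. With the exonic-length trend removed nuclear long noncoding RNAs stood at 0.11, adhesion molecules at 0.11 and postsynaptic scaffolds at 0.08. In that fit the mTORC1 pathway (-0.02) and interneurons (-0.05) turned too. Without pair 3 the spliceosome stood at 0.04, tubulins and actins at 0.03 and oligodendrocytes at 0.07, and without pair 2 astrocytes stood at -0.08 and the mTORC1 pathway at -0.0048. Without the genes that share sequence, tubulins and actins stood at 0.18 and oligodendrocytes at 0.07. The choroid plexus median of 0.43 became -0.0093 with a filter of 50.

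By the rough estimate of the worth of 1 read, which was larger in input, depth limits low genes most there. With 3 pairs and 2 residual degrees of freedom per gene, the test rests on spread borrowed across genes.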
